A study of Mus musculus with 2 samples.

Results

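Long footprints are stretches of 25 bases or more that DNase I left uncut inside open chromatin of mouse kidney, called as footprints of at least that width in both libraries of the study. The members were selected on measured widths: a footprint of one library had to overlap a footprint of the other by at least 1 base, and both had to be 25 bases wide or wider. By this rule 23817 loci were long, which is 16.0% of the 148544 loci where the libraries' footprints overlapped. They are set beside 42229 short loci, whose footprints were 7 to 12 bases wide in both libraries. Both libraries are DNase-seq of kidney tissue from B6CASTF1/J females at 8 to 10 months of age; this strain is the first hybrid generation of a cross between C57BL/6J and CAST/EiJ. The 2 libraries form 1 group, so no test over samples exists, and shares are given with exact Clopper-Pearson 95% intervals that cover counting error only. Per the labels they are biological replicates with a tissue sample each and 1 donor entry for both, and whether different mice gave them is not stated.

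DNase I cuts DNA wherever nucleosomes and other proteins leave it exposed, so cuts pile up in regulatory elements and form peaks. A protein bound within such an element shields the bases that it touches, and the resulting run of few cuts is a footprint. A wide footprint can come from a protein that contacts many bases, such as CTCF, whose zinc fingers read a long sequence at insulators and loop anchors, or from neighbouring proteins that sit side by side, as they do at the core promoters of widely used genes.

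The following stretches of the mm10 reference are shown because each holds a match to one of the motifs with the highest ratio of long to short share, described below; the match is in capitals and each stretch is the joined long footprint. All are off annotated UTRs, read 5′ to 3′ on the strand given, and named by the protein-coding gene with the nearest transcription start site (TSS). The NRF1 and ZBTB33 examples are the strongest hosts off a UTR. The mice carry a CAST/EiJ allele beside the C57BL/6J one, and its bases may differ from the reference shown.
CTCF, nearest gene Gm31371, chr8:20122175-20122220, plus strand: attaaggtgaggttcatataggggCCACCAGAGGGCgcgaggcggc
NRF1, nearest gene Cdv3, chr9:103366026-103366073, plus strand: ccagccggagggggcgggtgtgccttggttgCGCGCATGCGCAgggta
NFI, nearest gene Bahcc1, chr11:120232770-120232802, plus strand: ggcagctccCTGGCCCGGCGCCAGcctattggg
ZBTB33, nearest gene Fubp1, chr3:152210319-152210365, minus strand: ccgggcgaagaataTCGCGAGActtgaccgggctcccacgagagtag
CREB, nearest gene Chd2, chr7:73537859-73537918, plus strand: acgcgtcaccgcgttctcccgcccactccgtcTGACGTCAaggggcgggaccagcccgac

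A second set, chosen after its values were seen, shows the narrow and the wide form of the CTCF footprint, each on the strand that reads the motif in its usual direction. In the wide form the upstream stretch in capitals matches the letters TGCANTNCC, discussed with the edges of CTCF footprints. The narrow example also holds a match to the SP pattern GGGGCGGGG, described below, which overlaps the end of its CTCF match.
CTCF narrow, nearest gene Gtpbp2, chr17:46160206-46160233, minus strand: acgtcaaCCACCAGGGGGCggggaaagt
CTCF wide, nearest gene Mafa, chr15:75748530-75748574, minus strand: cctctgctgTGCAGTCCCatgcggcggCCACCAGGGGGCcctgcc

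A further set shows 4 of the 10 widest loci, those off annotated UTRs and listed first by the narrower of their widths. Capitals mark a CTCF match in the first and the letters CACCTG, read by SNAI and ZEB repressors, in the second; no match to the 40 patterns was found in the other 2.
Nearest gene Epm2aip1, chr9:111290009-111290091, plus strand: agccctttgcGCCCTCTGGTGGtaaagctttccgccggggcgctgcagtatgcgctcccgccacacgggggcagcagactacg
Nearest gene Pdia4, chr6:47757987-47758067, plus strand: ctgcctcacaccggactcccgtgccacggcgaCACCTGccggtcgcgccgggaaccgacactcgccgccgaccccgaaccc
Bbx promoter, chr16:50432414-50432486, plus strand: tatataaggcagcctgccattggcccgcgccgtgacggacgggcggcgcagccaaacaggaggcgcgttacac
Parp3 promoter, chr9:106476980-106477051, plus strand: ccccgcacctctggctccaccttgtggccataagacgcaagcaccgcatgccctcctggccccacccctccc

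Footprints of 25 bases or more were a minority of each library's calls. Replicate 1 held 34113 of them among 316362 footprints (10.8%), and replicate 2 held 39184 among 312966 (12.5%), with a median width of 10 bases over all footprints in both. The files give no read depth, so the depth behind each call is unknown. Of the long footprints of replicate 1, 69.9% were long in replicate 2, 21.9% were 13 to 24 bases wide there, 5.31% were 7 to 12 bases wide and 2.86% had no partner. Of the long footprints of replicate 2, 60.8% were long in replicate 1, 25.3% were 13 to 24 bases wide there, 7.71% were 7 to 12 bases wide and 6.14% had no partner. Any partner at all was found for 97.1% and 93.9% of the long footprints of replicates 1 and 2, against 34.7% and 34.2% of the short ones; width enters the rule and the overlap, so these are descriptions.

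The joined long loci had median widths of 31 and 32 bases in replicates 1 and 2, with upper quartiles of 38 and 40 bases and maxima of 84 and 82 bases. Their edges lay close together: among the 23774 loci formed by 1 footprint of each library, both edges were within 2 bases of each other in 47.8%, against 45.5% of 40567 short loci. The overlap made up a median of 89.7% of the joined span in long loci and 66.7% in short loci, a comparison that width alone moves. At the threshold itself, the 2637 loci whose narrower width was 25 bases lay in promoters in 39.97% and had a CTCF match in 7.32%. The 2683 loci whose narrower width was 24 bases gave 42.27% and 6.52%.

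**Figure D1:**
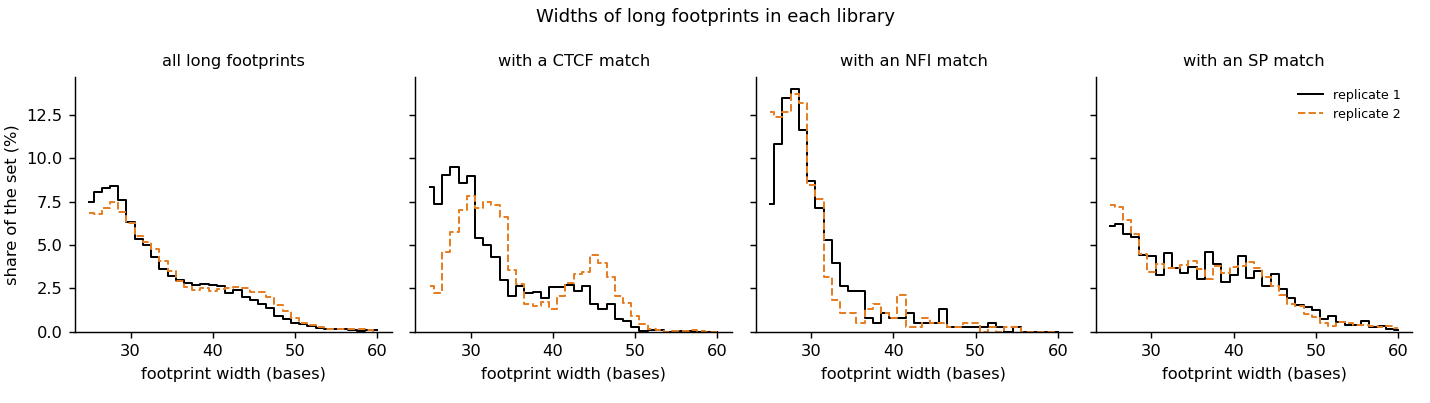
Share of long footprints (%, vertical axis) at each width (bases, horizontal axis) in replicate 1 (solid) and replicate 2 (dashed), for all 23817 long loci and for those with a CTCF, NFI or SP match; widths over 60 bases are not drawn. Widths with a CTCF match form 2 groups in replicate 2, with a low of 1.30% at 40 bases between them. In replicate 1 they run flat from 35 to 44 bases, at 1.95% to 2.69%. Widths with an NFI match form 1 group with medians of 29 and 28 bases, and widths with an SP match spread widely around 35 bases.

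The motif content of long loci stood farthest from that of short loci at CTCF and at a few promoter motifs. Shares were counted in windows of 51 bases centred on each locus, on both strands, so that footprint width did not set how much sequence was searched, and a window could count for several motifs. A match describes letters and is not evidence of binding. Of 40 consensus motifs, 35 were held by at least 20 long loci; 11 of these had a share at least 2 times that of the short loci, 3 had at most 0.5 of it, and 21 lay between. The count at 0.5 or less was 7 with the footprints of replicate 1 alone, 5 at a width minimum of 20 and 0 within promoters. At least 1 of the 40 was found at 36.5% of long loci and 20.4% of short loci. The leading 6 motifs, chosen by this ratio, together stood at 20.8% of long loci (20.3 to 21.4) and 1.97% of short loci (1.84 to 2.11).

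CTCF, the insulator protein, had the highest ratio. Its 12-letter motif stood at 9.68% of long loci (9.31 to 10.1; 2305 loci), 1.405% of loci 13 to 24 bases wide in both libraries, 0.538% of short loci (0.470 to 0.612) and 3.15% of all shared loci, an 18-fold ratio of long to short. The size of this ratio depended on the window. With windows of 31 bases it was 72.1 (9.56% of long and 0.133% of short loci). With windows of 71 bases it was 9.82 (9.70% and 0.987%). Among windows moved by 100 bases that touched no footprint, 0 of 10649 beside long loci held the CTCF motif, with an exact upper bound of 0.0346%. Beside short loci 7 of 39264 did (0.0178%). Moved windows that touched a footprint were dropped, so footprinted sites are missing from them by rule. The shares in moved windows, here and for other motifs, are descriptions only. Outside promoters, defined here as more than 500 bases from any protein-coding TSS, the CTCF share was 16.2% of long loci (15.6 to 16.8) and 0.741% of short loci. Of the CTCF-holding long loci 5.21% lay in a promoter, and their median distance to a TSS was 15546 bases.

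NFI factors bind as dimers to a palindrome, and their 15-letter motif followed the same placing. It stood at 1.59% of long loci (1.44 to 1.76) and 0.161% of short loci, a ratio of 9.88, and 11.3% of the 379 long loci with it lay in promoters. REST, which silences neuronal genes outside neurons, had a 17-letter match at 32 long loci, 0.134% of long and 0.0308% of short loci. RFX factors, known for ciliary genes, had matches at 59 long loci, 0.248% of long and 0.0663% of short loci. Unlike NFI, RFX matches lay mostly near genes, with 66.1% of the 59 long loci in promoters.

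A second group of motifs belonged to promoters. SP factors, which bind GC boxes, were searched as GGGGCGGGG, found at 7.01% of long loci (6.69 to 7.34), 0.999% of short loci and 3.34% of all shared loci, and at 0.282% and 0.392% of the moved windows beside long and short loci. Within promoters the SP share was 13.7% of long loci (13.1 to 14.4) and 2.34% of short loci (2.08 to 2.62). NRF1, a regulator of mitochondrial and housekeeping genes, had its 12-letter palindrome at 1.00% of long and 0.0734% of short loci, and 91.2% of its 239 long loci lay in promoters. The cyclic AMP element TGACGTCA, bound by CREB, stood at 1.26% of long loci and 0.149% of short loci. ZBTB33, also called Kaiso, binds methylated CpG sequence and TCGCGAGA, which stood at 0.546% of long and 0.0639% of short loci, and 96.2% of its 130 long loci lay in promoters. NFY, the CCAAT-box factor, had a smaller ratio of 2.12 (1.25% of long and 0.587% of short loci), and ETS factors, searched as CCGGAAGT, had 1.84.

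Motifs of several tissue and signal factors had lower shares at long than at short loci. GATA factors, searched as AGATAAG, stood at 0.134% of long and 0.301% of short loci, TEAD (TGGAATGT), the partner of YAP, at 0.176% and 0.367%, and MEF2 at 0.0840% and 0.322%; these are the 3 motifs with ratios of at most 0.5 among the 35 held by at least 20 long loci. AP-1, a stress and growth factor complex searched as TGANTCA, stood at 0.827% of long and 1.52% of short loci. The moved windows outside footprints, beside long and short loci, held GATA in 0.526% and 0.553%, MEF2 in 0.498% and 0.522%, TEAD in 0.254% and 0.229% and AP-1 in 1.30% and 1.37%. GATA and MEF2 shares at short loci were thus below those of sequence outside footprints. The tubule factors differed from each other: HNF1 had matches at 0.193% of long and 0.128% of short loci, with overlapping intervals (0.141 to 0.258 and 0.0961 to 0.167). HNF4 (CAAAGTCCA) had matches at 0.260% of long and 0.412% of short loci. The direct repeat pattern DR1 went the other way from HNF4. It stood at 0.113% of long loci (0.0747 to 0.165; 27 loci) and 0.0379% of short loci (0.0217 to 0.0615; 16 loci). The moved windows beside long and short loci held HNF4 in 0.0563% and 0.0942%. They held HNF1 in 0% and 0.0229%, and DR1 in 0% and 0.00764%. Unlike those of GATA and MEF2, each of these shares was below that at the loci themselves. Base composition moved with the sets: the median GC content of the windows was 60.8% in long and 54.9% in short loci, and the mean number of CpG dinucleotides per window was 3.06 and 2.01. The part of composition in the motif shares was not tested.

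**Figure D2:**
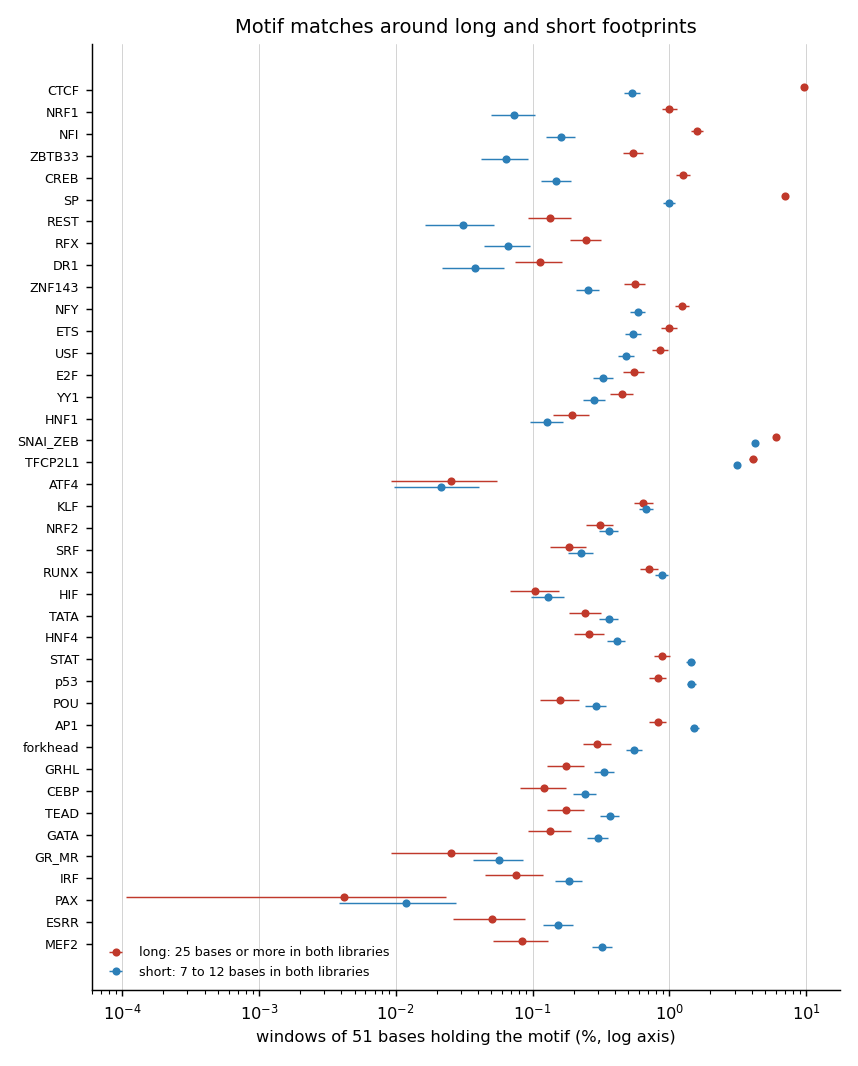
Share of windows of 51 bases that hold each of 40 motifs (%, log axis) for long loci (red, upper point) and short loci (blue, lower point), with exact 95% intervals as bars and motifs ordered by the ratio of long to short. CTCF stands at 9.68% of long and 0.538% of short loci at the top, and MEF2 at 0.0840% and 0.322% at the bottom.

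The position of the CTCF match inside its footprint was measured in the loci with a single match, 2303 in replicate 1 and 2304 in replicate 2. The whole match lay inside the footprint in 98.3% and 99.8% of them. The downstream edge, on the side of the G-rich end of the motif, lay a median of 10 and 12 bases past the match. The upstream edge fell at 2 places: a near one, most often 5 bases from the match in replicate 1 and 6 in replicate 2, and a far one, most often 23 bases in both. With the boundary set at 11 bases after seeing this distribution, 1343 loci had the near edge in both libraries, 583 had the far edge in both, 153 had it in replicate 1 only and 224 in replicate 2 only. The near form had median widths of 29 and 31 bases in replicates 1 and 2, and the far form 41 and 45 bases.

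The far form had strong base preferences upstream of the match, and the near form had weaker ones. Counting upstream from the match, C was the base 10 positions away in 71% of the 583 far loci and 28% of the 1343 near loci. T stood 12 positions away in 69.8% of far and 34.9% of near loci, and G stood 16 positions away in 69.1% of far and 29.9% of near loci. Read in the 5′ to 3′ direction, the most common bases over positions 17 to 9 spell TGCANTNCC, where N marks positions at which no base passed 40%. CTCF is known to have such an upstream motif, read by its outer zinc fingers. The exact string, searched in the 30 bases before the match after this pattern was seen, stood at 5.83% of far loci (4.07 to 8.05; 34 loci) and 0.149% of near loci (0.0180 to 0.537; 2 loci). Median host peak signal was 1.69 and 3.48 at far loci in replicates 1 and 2, and 1.45 and 2.66 at near loci; its part in the edge position was not tested.

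**Figure D3:**
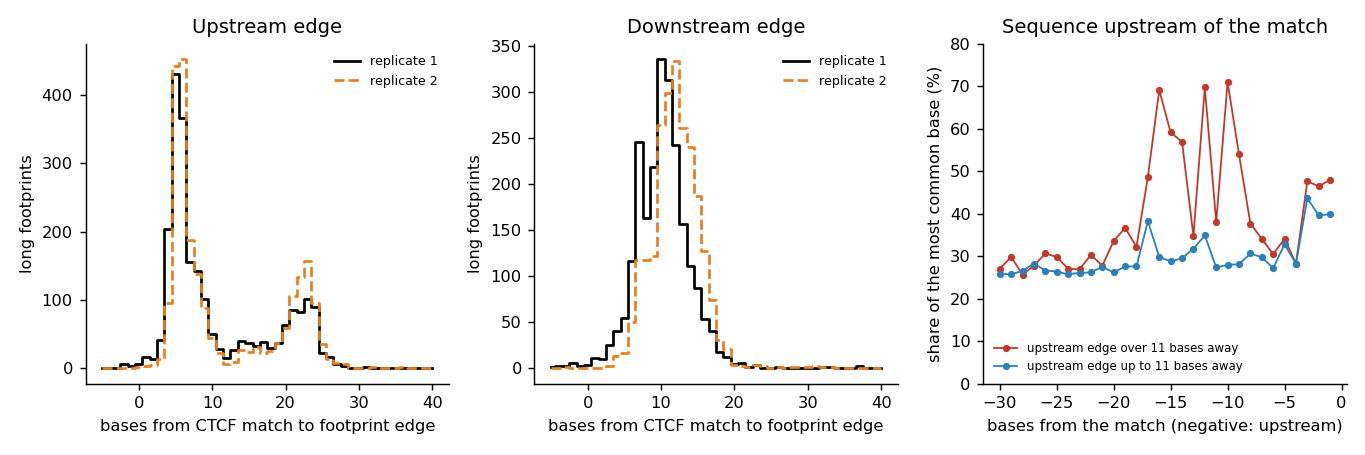
Number of CTCF-holding long footprints by the distance from the match to their upstream edge (left) and downstream edge (middle), in bases, for replicate 1 (solid) and replicate 2 (dashed), and the share of the most common base at each position upstream of the match (right, %) in loci with the far edge (red, 583 loci) and near edge (blue, 1343 loci). The upstream edges form 2 groups, and the far loci reach 71% at 10 bases upstream, where the near loci stand at 28%.

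Edges were also measured at other motifs. The NFI motif is a palindrome, so its edges are the left and right ones on the reference and cannot show a lopsided shape. They lay a median of 7 and 7 bases from the match in replicate 1 and 6 and 7 bases in replicate 2. At REST, the upstream edges lay 4.5 and 5 bases and the downstream edges 8.5 and 9 bases from the match in replicates 1 and 2, and the whole match was inside all 32 footprints in both. SP footprints extended beyond the 9-letter match by medians of 11 bases on one side and 10 and 9 on the other, with upper quartiles of 18 to 20 bases. Footprints of 40 bases or more made up 34.7% and 32.5% of the SP-holding loci in replicates 1 and 2, 19.3% and 30.2% of the CTCF-holding loci, and 7.92% and 7.65% of the NFI-holding loci.

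The libraries differed in how fully they shared the CTCF footprints. Of the CTCF-holding footprints that were long in replicate 1, 94.3% were long in replicate 2. Of those long in replicate 2, 56.5% were long in replicate 1, 26.03% were 13 to 24 bases wide there, 7.77% were 7 to 12 bases wide and 9.71% had no partner. NRF1 ran the other way, since 73.2% of the NRF1-holding long footprints of replicate 1 and 90.1% of those of replicate 2 were long in the other library. In each library taken alone, the ratio of the CTCF share at long and short footprints was 9.76 in replicate 1 and 16.8 in replicate 2. The cause of this difference between the libraries was not tested. Median host peak signal at CTCF-holding long loci was 1.49 in replicate 1 and 2.87 in replicate 2, on scales that belong to each library.

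Long footprints as a whole lay closer to genes than short ones, which did not hold in most bands of host signal, as given with the host peaks. A protein-coding TSS lay within 500 bases of 43.3% of long loci (42.72 to 43.98), 30.1% of short loci (29.6 to 30.5) and 37.7% of all shared loci. The loci 13 to 24 bases wide had a higher share than the long ones, 49.6%, so the share did not climb steadily with width. Introns held 26.2% of long and 35.9% of short loci, exons 5.96% and 7.00%, and intergenic sequence 24.45% and 27.01%. The median distance to the nearest TSS was 1875 bases for long and 7174 bases for short loci.

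The stretch just upstream of the TSS, where activators and the transcription machinery assemble, held a larger share of long than of short footprints. The midpoint fell 1 to 150 bases upstream in 25.6% of long loci (25.1 to 26.2) and 11.3% of short loci (11.04 to 11.65). Loci 13 to 24 bases wide gave 24.3%, close to the long share, so this place was not particular to long footprints. The midpoint fell 1 to 150 bases downstream in 7.38% of long loci, 11.95% of loci 13 to 24 bases wide and 9.05% of short loci. Within promoters, 77.3% of long loci (76.5 to 78.1) and 58.2% of short loci (57.3 to 59.0) were upstream. Loci 13 to 24 bases wide stood between them, at 67.9%. An annotated start base was covered by 7.95% of all long loci, 5.47% of loci 13 to 24 bases wide and 1.44% of short loci. A wider footprint covers more bases, so width alone moves these coverage shares, and its part was not tested. Long loci with NRF1, ZBTB33 and CREB matches had median positions of -21.5, -23 and -28 bases relative to the TSS in promoters, where negative is upstream. Those with SP stood at -47 bases and those with NFY at -64 bases. Short promoter loci stood at -3.5 bases with NRF1 (26 loci), -25.5 with ZBTB33 (26 loci) and -30.5 with CREB (30 loci). With SP they stood at -39 and with NFY at -49 bases. The ZBTB33 and CREB positions were thus close in both sets.

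**Figure D4:**
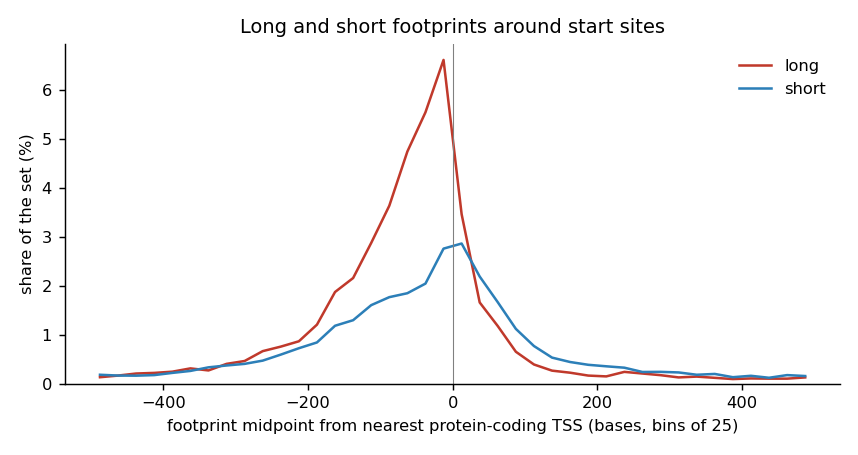
Share of each set (%, vertical axis) by the position of the footprint midpoint relative to the nearest protein-coding TSS (bases, in bins of 25; negative is upstream), for long (red) and short (blue) loci. The long loci peak at 6.62% in the bin just upstream of the start and stand at 3.47% in the bin just after it, against 2.76% and 2.87% of short loci.

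The host peaks of long footprints were stronger than those of short ones. Peak signal is the authors' own value, on a scale that belongs to each library, and is given per library; the bands and ranks further on use the mean of both libraries. A peak overlapped 95.1% and 95.4% of long footprints in replicates 1 and 2, and 86.6% and 86.5% of short ones. The median host signal was 3.72 and 4.52 for long and 1.63 and 1.61 for short footprints in replicates 1 and 2. These medians lie at the 91.2 and 91.9 percentile of all peaks for long, and the 76.8 and 73.5 percentile for short footprints. Within promoters the medians were 7.87 and 8.73 for long and 3.54 and 4.08 for short footprints, and outside promoters 2.11 and 2.99 for long and 1.33 and 1.27 for short. Long footprints sat nearer to the middle of the peak, with a median offset of 21 and 18.5 bases from its centre, against 51 and 53.5 bases for short ones.

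Seen from the peaks, 96746 regions carried a peak in both libraries and 18689 of them (19.3%) held a long footprint. A single long footprint was found in 15137 regions, 2 in 2736 and 3 or more in 816, of which 83.9% were at promoters; the most in 1 region was 7. The share of regions with a long footprint climbed with the region's mean signal, from 0.0118% of those under 0.5 to 42.98% of those from 2 up to 4 and 83.7% of those at 8 or more. The share with a short footprint was 8.75%, 46.1% and 43.9% in the same bands. The part of signal in where long footprints were called was not tested.

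Because signal moved with both width and position, the comparisons were repeated within bands of host signal averaged over the libraries, a choice made after seeing the data. Within each band, the promoter share of long loci was below that of short loci. The promoter share was 3.58% of 475 long and 7.20% of 9500 short loci under a signal of 1, and 4.96% and 13.7% from 1 up to 2. It was 18.3% of long and 29.1% of short loci from 2 up to 4, 54.6% and 61.0% from 4 up to 8, and 83.7% and 85.7% at 8 or more. The mean joins the scales of the libraries, so the bands were also drawn on the signal of each library alone. The promoter share of long loci was then lower in 8 of 10 bands and higher in 2, both of replicate 1: 57.7% of long and 55.5% of short loci from 4 up to 8, and 83.8% and 82.5% at 8 or more. The CTCF and SP shares kept their direction in all 5 bands of mean signal and in all 10 bands of a single library. Outside promoters, a CTCF match stood at 22.2% of long and 0.847% of short loci from 1 up to 2, and at 18.5% and 0.462% from 2 up to 4. At 8 or more it was 3.47% of long and 0.735% of short loci, with overlapping intervals (2.39 to 4.87 and 0.0892 to 2.63). Within promoters an SP match stood at 13.4% of long and 2.60% of short loci from 2 up to 4, and at 13.01% and 0.978% at 8 or more. The lean to the upstream side of the TSS also kept its direction in these bands: it took in 74.7% of long and 56.8% of short promoter loci from 2 up to 4, and 80.3% and 72.0% at 8 or more. Under a signal of 1, with 17 long promoter loci, it was 58.8% and 54.7% with overlapping intervals (32.9 to 81.6 and 50.9 to 58.5).

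**Figure D5:**
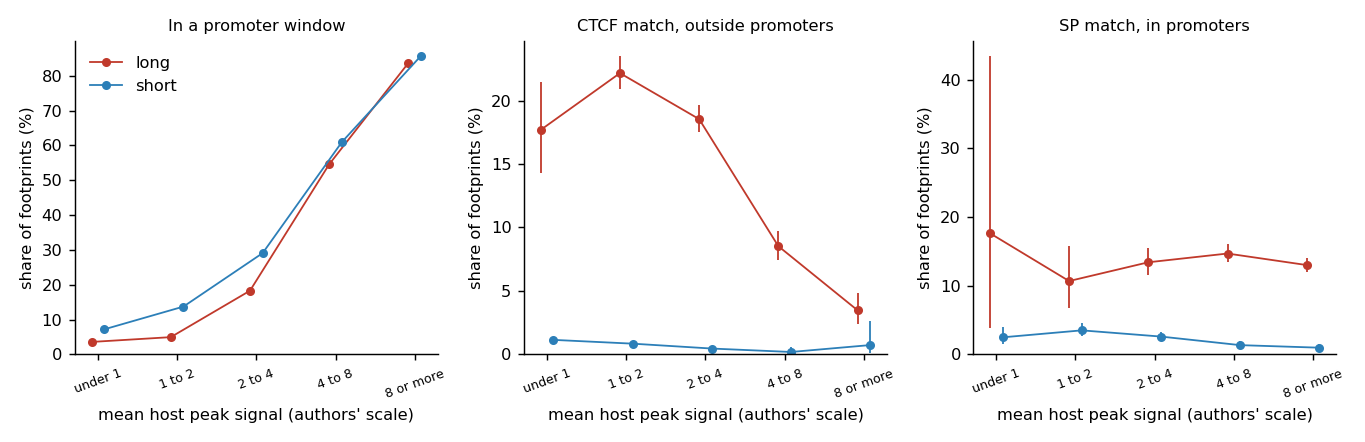
Share of long (red) and short (blue) loci, in %, that lie in a promoter (left), that hold a CTCF match outside promoters (middle) and that hold an SP match within promoters (right), in 5 bands of mean host peak signal; bars in the middle and right panels are exact 95% intervals. Long loci lie under short loci in all 5 bands on the left and above them in all 5 bands in the other panels, where 2 intervals overlap: CTCF at 8 or more, and SP under 1.

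At the level of genes, 31.9% of 21853 protein-coding genes had a long footprint within 500 bases of a TSS and 37.4% had a short one. Among the 13643 genes with a shared region there, 51% had a long footprint. A single long footprint was seen at 3891 genes, 2 at 1965 and 3 or more at 1106, with 8 at most, and 12.3% of promoter loci lay in the windows of 2 or more genes. The gene lists below are read against these shares as descriptions only. Long footprints were more frequent in regions of stronger signal, as given above, and the lists were not matched for signal. The part of signal in their shares was not tested.

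Circadian clock genes had the highest share of the 13 lists: 12 of 15 genes (80%) held 32 long loci, and 9 of 15 had a short footprint. The clock runs on a loop in which activators bind E-boxes of the Per and Cry genes, whose products repress them, with Nr1d1, Nr1d2 and the PAR-bZIP factors Dbp, Tef and Hlf as outputs. Per1 had 6 long loci in its window, in host peaks with a signal of 28.02 and 19.69 in replicates 1 and 2; the 3 named by rank were 27, 38 and 25 bases wide in replicate 1 and 25, 33 and 25 in replicate 2. Per3 and Cry1 had 4 each, and Per2, Cry2, Dbp and Nr1d2 had 3 each. The Nr1d2 locus nearest its start was 50 and 47 bases wide, in a peak of 28.7 and 21.9. Clock, Arntl and Npas2 had no long locus. Of the 15 genes, 14 had a shared region, and Npas2 had none.

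Groups of widely expressed genes followed. Respiratory chain and ATP synthase genes had a long footprint at 17 of 24 (70.8%) and a short one at 16 of 24; their 26 long loci included 4 each at Atp5b and Uqcrc1. Cytosolic ribosomal protein genes had a long footprint at 15 of 22 (68.2%), with 24 loci, and a short one at 17 of 22 (77.3%). Rpl18 had 4 long loci and Rplp0 had 3, and all 22 genes had a shared region.

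Kidney gene groups had shares of 13.3% to 33.3%, beside the 31.9% of all genes, and had a short footprint at 30% to 46.7% of their genes, beside 37.4%. Of all genes with a shared region, 51% had a long footprint, and each kidney list stood lower on that base. The counts were 7 of 24 for transcription factors, 4 of 19 for proximal tubule and 5 of 14 for thick ascending limb and distal tubule. They were 2 of 13 for collecting duct and 2 of 6 for podocytes. Transcription factors of kidney cells had a long footprint at 7 of 24 genes (29.2%), among them Pou3f3, Tfcp2l1, Hnf4a, Ppara, Esrra and Emx2. Esrra, a nuclear receptor for mitochondrial genes, had the strongest host, with a signal of 30.7 and 26.4 and loci 49 and 47, and 42 and 46 bases wide in replicates 1 and 2. Hnf4a, the main proximal tubule regulator, had 1 locus of 29 and 26 bases in a peak of 4.06 and 4.09. Proximal tubule genes had one at 4 of 22 (Pck1, Ggt1 and Miox among them) and a short one at 9 of 22. Thick ascending limb and distal tubule genes had one at 5 of 15, among them Umod, which encodes uromodulin, with 41 and 32 bases in a peak of 6.76 and 3.94, and Kcnj1, a potassium channel, with 34 and 36 bases in a peak of 4.52 and 2.81. Collecting duct genes had one at 2 of 15 (Atp6v0a4 and Scnn1g), and podocyte genes at 2 of 10 (Clic5 and Vegfa).

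Lists of other cell types had shares of 0% to 10%. All 12 endothelial genes had a shared region and 8 had a short footprint, and 0 had a long one, with an exact upper bound of 26.5%. None of the 12 immune cell genes had a shared region, a long footprint or a short one. The lists for stroma and mural cells, for neurons and for hepatocytes each had a long footprint at 1 of 10 genes (Pdgfra, Syp and Apob). Among their genes with a shared region, the counts were 1 of 7, 1 of 2 and 1 of 4. With a window of 2000 bases the share of all genes was 35.9%, and these 3 lists stood at 4, 3 and 3 of 10 genes. Their difference from the kidney lists thus depended on the window and on which genes were counted. The endothelial and immune lists remained at 0 of 12 with the wider window. In tissue, fewer cells of a type and less open chromatin per cell cannot be told apart.

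Among the loci that stood out by width, 8 of the 10 widest were at promoters. The widest by its narrower width was intergenic, 18105 bases from the TSS of Epm2aip1, at 83 and 82 bases in replicates 1 and 2, and its sequence above holds a CTCF match near one end. The next, 55403 bases from the TSS of Pdia4, was 81 and 80 bases wide. At the promoter of Ppia, which encodes cyclophilin A, the footprint was 84 and 79 bases wide, with a signal of 11.6 and 15.3. The remaining 7 were at the promoters of Zmynd8, Bbx, Pdcl3, Parp3, Leprot, Ruvbl2 and Cdk12, at 70 to 73 bases in both libraries.

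Among the loci that stood out by host signal, 4 were in the promoter peak of Dynlt1b, a dynein light chain gene, with a signal of 48.9 and 61.2. Their widths in replicate 1 were 48, 25, 47 and 51 bases, and in replicate 2 they were 42, 25, 47 and 51 bases. Dynlt1b belongs to a family of near-identical gene copies on chromosome 17, so reads there can come from several copies and this signal is uncertain. An intergenic peak near Igf2bp3, whose TSS is the closest, held 3 long loci, with a signal of 14.9 in replicate 1 and 54.9 in replicate 2, a larger gap than at the other named hosts, on scales that belong to each library. The last 3 were in the promoter peak of Dnpep, an aspartyl aminopeptidase gene, with a signal of 36.7 and 30.9 and widths of 28, 46 and 45 bases in replicate 1 and 27, 44 and 45 bases in replicate 2.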

How the data were processed

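DNase-seq cuts were called by the authors as footprints and peaks on mm10, separately per library, per the file headers. No name or version of an aligner or caller is given in the sources used here. Each footprint carries the same p-value level of 0.01 as deposited. The authors' FDR values list runs of bases with an FDR of at most 0.05, and all bases of 99.97% and 99.99% of long footprints in replicates 1 and 2 are listed. Peak signal is the value the authors deposited for each peak, on a scale that the file headers do not define. The longer of each library's peak lists was used.

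Overlapping footprints of the libraries were joined into loci on chromosomes 1 to 19, X and Y with Python 3.11.15, pandas 2.3.3 and numpy 2.4.6. Sequence came from RefSeq's GRCm38.p6 through pysam 0.24.0, and genes from GENCODE M21; intervals came from scipy 1.17.1 and figures from matplotlib 3.10.9. Motifs were 40 exact consensus patterns; patterns of 10 or more letters are given by name. The joining, overlap and motif steps were tested on simulated data.

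The loci named are the 10 widest, the 10 with the highest mean host signal, the strongest host for each of the 6 leading motifs, and up to 20 at listed genes; other named genes come from lists of 201 genes. The members, the motifs and the lists were chosen with earlier results of these data known. Alternatives changed the overlap, the width limit, the peak list, the promoter window, the motif window, the window at listed genes, the library and the signal that sets the bands. Some items are not reported here.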

Additional observations from a re-analysis of the deposited data

How the results depend on the processing

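With 50% overlap required of each footprint, all 5 results recomputed kept their direction and side. A width minimum of 30 gave 11747 loci, a promoter share of 48.5%, a host peak share of 95.8%, and a ratio of long to short median host signal of 3.09, against 2.55 at 25 bases (mean of the libraries). A width minimum of 20 gave 39855 loci, 45.5% in promoters and 93.9% in peaks. Each library alone gave 34113 to 39184 long footprints, 37.3% to 42.5% in promoters, 94.4% to 94.7% in peaks, a signal ratio of 2.75 to 3.09, and 12 to 14 motifs at 2 times or more, against 11; 3 to 7 had a ratio of at most 0.5, against 3. The promoter share was 29.99% with a window of 100 bases, 50.5% with 2000 bases and 48.1% with the start sites of all annotated genes; long loci stayed above short loci in each. At a host signal from 2 up to 4 it reversed, with 18.3% of long and 29.1% of short loci (27.1% and 30.98% by the signal of replicate 1 alone, 15.3% and 30.7% by that of replicate 2), and 5 of 17 motifs reached 2 times while 0 had a ratio of at most 0.5. The shorter peak list gave a host peak share of 94.4%, and the signal ratio outside promoters was 1.97. Counting matches per 1000 bases of the footprint itself, 21 of 29 motifs reached 2 times, a count that the width rule itself moves, since a footprint of at most 12 bases can hardly hold a match of 12 or more letters. The cause of the other shifts was not tested. Leaving that setting out, the 65 ratios of the leading 6 motifs were all above 2, from 2.08 (ZBTB33, host signal from 2 up to 4, 5 long loci) to 156 (NFI, the same band, 1 short locus). NFI had no match at short footprints inside regions with a long one, so no ratio was given there. The leading 6 motifs were chosen by this ratio in the same data, so that all stayed above 2 is a description only. With a window of 2000 bases 3 of the 13 gene lists moved by over 1.5 times, those of stroma and mural cells, neurons and hepatocytes. No paired analysis was possible because the 2 libraries form 1 group. Read depth is unknown, 2 libraries cannot separate animals from technical spread, and exact patterns miss weaker sites.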
